A study of Mus musculus with 8 samples.

Results

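Pax genes encode transcription factors that bind DNA through a paired domain and act as early regulators of organ and tissue identity. The family described here has 8 members, Pax1, Pax2, Pax3, Pax5, Pax6, Pax7, Pax8 and Pax9, of 52281 named loci measured. They were taken by gene symbol, and the family was chosen by its Prdm16 knockout values, since Pax1 was nearly absent from those embryoid bodies. The Prdm16 knockout against its control is therefore described by its values, with no p, and where members past the threshold are counted there, the share of all loci stands beside the count and nothing is read from it. Pax4 and the Pax6 antisense transcript Pax6os1 were listed at 0 in every library.

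The samples were mouse embryoid bodies, aggregates of differentiating embryonic stem cells, collected at day 9 on a C57BL/6 background. They fell into 4 groups of 2 libraries: a Prdm16 knockout, its wild-type Prdm16 control, a PR domain knockout placed by the labels at exon 4, and a second wild-type set that served as the PR domain control. PRDM16 regulates transcription through zinc fingers, and its PR domain, at the N terminus, resembles the catalytic domain of histone methyltransferases. The labels name no clone, passage, date or batch, so differences between the cell lines used and effects of the genotype cannot be told apart. Nothing in them says that libraries of a group came from separate cultures. The p-values therefore measure a spread between libraries that may be technical.

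The family is divided by structure into subgroups that share expression domains. Pax1 and Pax9 mark the sclerotome, the part of the somite that forms vertebrae and ribs, and the endoderm of the pharyngeal pouches, and in the sclerotome they respond to Sonic hedgehog from the notochord. Pax2, Pax5 and Pax8 act at the midbrain-hindbrain boundary, in the kidney, in the thyroid and in B cells. Pax3 and Pax7 mark the dorsal neural tube, neural crest and muscle progenitors. Pax6 is the main regulator of eye formation and also acts in forebrain, spinal cord and pancreatic islets.

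Start-site sequences are shown for Pax1, Pax9 and Pax6, the members that carried most of the family's signal and had both libraries of each knockout below its control. RefSeq promoters (build GRCm38.p6, 250 bases before to 50 after a start) were found for 7 of the 8 genes, with 10 starts in all. Capitals mark matches, on either strand, to a CCAAT box (CCAAT) or a GC box (GGGCGG). The Pax1 window is chr2:147364744-147365043 on the plus strand, that of Pax9 is chr12:56695221-56695520 on the plus strand, and that of Pax6 is the upstream one of its listed starts, chr2:105668646-105668945 on the plus strand.
Pax1: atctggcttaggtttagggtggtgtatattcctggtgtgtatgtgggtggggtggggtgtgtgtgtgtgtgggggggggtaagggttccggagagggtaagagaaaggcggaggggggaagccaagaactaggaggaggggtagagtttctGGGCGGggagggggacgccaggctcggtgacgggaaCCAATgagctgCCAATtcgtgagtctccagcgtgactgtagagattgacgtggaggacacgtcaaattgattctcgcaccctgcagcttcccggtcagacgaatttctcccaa
Pax9: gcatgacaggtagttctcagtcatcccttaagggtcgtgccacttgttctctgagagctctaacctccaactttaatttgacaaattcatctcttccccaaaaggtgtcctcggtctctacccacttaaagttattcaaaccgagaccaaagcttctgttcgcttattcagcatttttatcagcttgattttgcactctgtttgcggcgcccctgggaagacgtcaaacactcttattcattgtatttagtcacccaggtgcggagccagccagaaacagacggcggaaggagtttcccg
Pax6: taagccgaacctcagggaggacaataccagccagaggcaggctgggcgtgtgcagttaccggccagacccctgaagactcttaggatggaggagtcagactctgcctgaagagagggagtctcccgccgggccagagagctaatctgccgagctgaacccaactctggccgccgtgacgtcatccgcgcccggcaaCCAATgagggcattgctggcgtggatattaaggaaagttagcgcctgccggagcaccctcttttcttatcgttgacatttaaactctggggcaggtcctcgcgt
The Pax1 window held 2 CCAAT boxes and 1 GC box, the Pax6 window held 1 CCAAT box, and the Pax9 window held neither. Over all 32851 promoters of this length, 37.41% held CCAAT and 35.66% held GGGCGG on either strand. A Gli site (GACCACCCA, the motif through which Hedgehog signalling acts on target genes), a TATA box (TATAAA) and a homeodomain core (TAATTA) were also searched on both strands. These were in none of the 3 windows, and in 0.25%, 13.62% and 5.29% of all promoters, in that order. CG dinucleotides numbered 13 in the Pax1 window, 11 in the Pax9 window and 18 in the Pax6 window, against a median of 7 over all promoters. None of the motifs searched contains another, and a match is a description of these windows only.

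Levels are given as normalised fragments, fragments per locus after division by the size factor the authors used for that library. The libraries held 6273789 to 9086885 fragments on named loci. Prdm16 itself had 11.2 and 1.10 normalised fragments in the Prdm16 knockout, against 24.4 and 26.3 in the Prdm16 control, a log2 fold change of -2.38 ± 0.50 (SE) that was -3.65 without Prdm16 knockout replicate 1 and -1.11 without replicate 2. The PR domain knockout had 23.3 and 15.7, against 44.6 and 22.7 in the PR domain control, and the groups overlap. These fragments were counted over the whole locus, which does not check a deletion at exon 4. The Prdm16 knockout libraries differed from the rest in a further respect. Summed over 4 Y-linked genes, Ddx3y, Uty, Kdm5d and Eif2s3y, they held 0 to 1.10 normalised fragments, against 1246 to 1323 in the Prdm16 control, while the PR domain knockout held 3082 to 3167 and the PR domain control 2750.5 to 2752. The part of this difference in the Pax values was not tested.

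Pax1 and Pax9, the sclerotome and pharyngeal pair, were lowest in the Prdm16 knockout. Pax1 (ENSMUSG00000037034.16, chromosome 2, 147361925 to 147393295, plus strand, GRCm38) had 3.72 and 1.10 normalised fragments in the Prdm16 knockout, against 173 and 167 in the Prdm16 control. The groups do not overlap, and the knockout values stand on 4 fragments in all, against 341 in the control. The knockout level was 1.37% of the control level, with an exact 95% interval of 0.372 to 3.55% that covers counting error only, as do all intervals of this kind. In embryoid bodies, which are bulk samples, fewer cells of a type and less RNA per cell cannot be told apart.

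In the PR domain knockout, whose libraries had no part in choosing the family, Pax1 fell. Its libraries held 70.9 and 86.8 normalised fragments there, against 252 and 259 in the PR domain control, and both knockout libraries lay below both controls. The log2 fold change was -1.69 ± 0.25 (SE, 95% interval -2.20 to -1.17, limma adjusted p = 6.38e-06, n = 2 libraries per group). That left 31.0% of the control level (exact counting interval 26.1 to 36.8%). The corresponding log2 value in the Prdm16 knockout was -5.76 ± 0.25, so Pax1 was lower in both knockouts and far closer to 0 in the Prdm16 knockout. On log2(FPKM + 1), where the added 1 is large beside such low values, it was -2.94.

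Pax9 (ENSMUSG00000001497.18, chromosome 12, 56691767 to 56712822, plus strand), which acts together with Pax1 in vertebral development, had 4.96 and 8.80 normalised fragments in the Prdm16 knockout, against 46.7 and 61.1 in the Prdm16 control. The knockout level was 12.9% of the control (6.46 to 23.4%), at a log2 fold change of -2.83 ± 0.27 (-1.05 on log2(FPKM + 1)). Pax9 in the PR domain knockout had 49.3 and 53.8, against 72.0 and 78.4 in the PR domain control. Both knockout libraries again lay below both controls, but the difference did not pass the test (log2 fold change -0.54 ± 0.27, 95% interval -1.09 to 0.02, limma adjusted p = 0.182). The interval holds 0 near its upper end, so these libraries do not settle whether Pax9 differed.

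**Figure D1:**
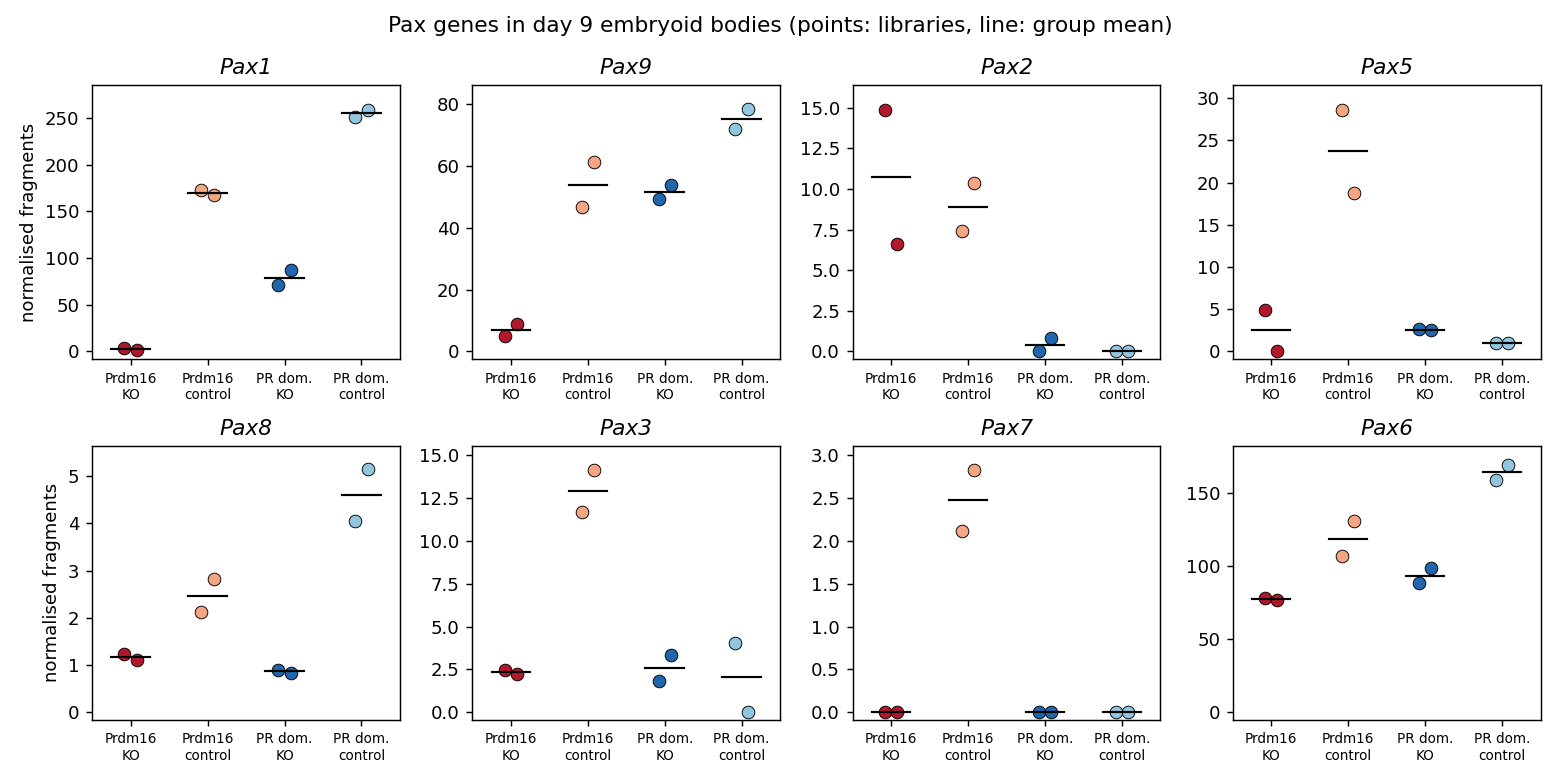
Normalised fragments of the 8 Pax genes (vertical axis, 1 scale per gene) in the Prdm16 knockout, Prdm16 control, PR domain knockout and PR domain control. Points are libraries and lines are group means; Pax1 and Pax9 of the Prdm16 knockout lie near 0, and Pax2, Pax5, Pax3 and Pax7 are near 0 in both PR domain groups.

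The balance of the pair differed too. The ratio of Pax1 to Pax9 in normalised fragments was 0.75 and 0.125 in the Prdm16 knockout, against 3.70 and 2.74 in the Prdm16 control. The ratio in the PR domain knockout was 1.44 and 1.62, against 3.49 and 3.30 in the PR domain control. Both knockouts thus had lower ratios than their controls in every library. The ratios of the 2 control sets overlap. Their Pax1 levels were 255 ± 5.34 normalised fragments in the PR domain control and 170.1 ± 3.82 in the Prdm16 control (SD, n = 2 each).

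**Figure D2:**
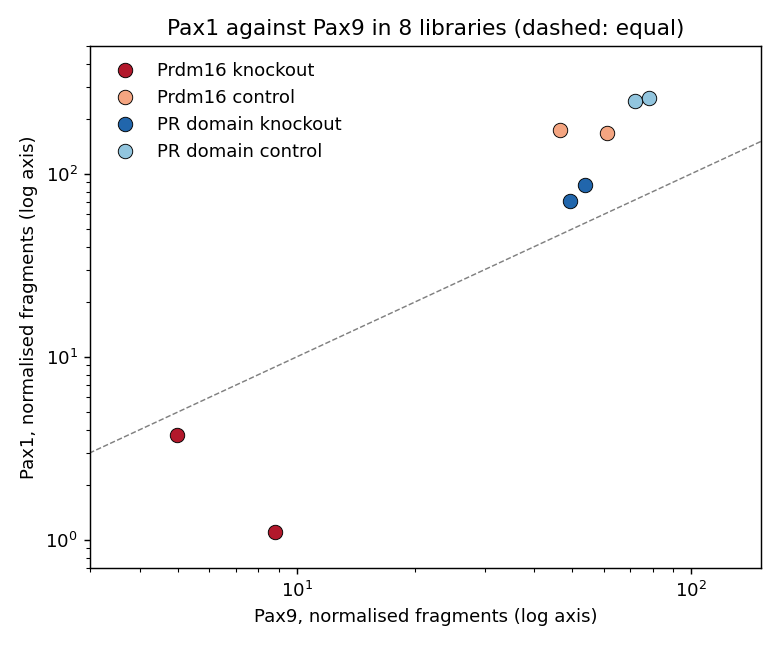
Pax1 (vertical, log axis) against Pax9 (horizontal, log axis) in normalised fragments for the 8 libraries, coloured by group, with the dashed line at equal values. The Prdm16 knockout libraries, with ratios of 0.75 and 0.125, are the ones below the line, and the PR domain knockout libraries lie between them and the controls.

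Pax6 (ENSMUSG00000027168.21, chromosome 2, 105668900 to 105697364, plus strand), the eye and forebrain regulator, was detected in all groups and had the narrowest relative range of the members, 77.0 to 169 normalised fragments. It had 88.8 and 98.4 normalised fragments in the PR domain knockout, against 159 and 169 in the PR domain control. The groups do not overlap, and Pax6 fell with a log2 fold change of -0.81 ± 0.15 (SE, 95% interval -1.11 to -0.50, limma adjusted p = 0.000146), to 57.1% of control (47.9 to 68.1%). On log2(FPKM + 1) the change was of like size, -0.89, but did not pass (limma adjusted p = 0.245). Pax6 in the Prdm16 knockout had 78.2 and 77.0, against 107 and 131 in the Prdm16 control, which is 64.8% of control (52.1 to 80.5%) and a log2 fold change of -0.60 ± 0.15. For Pax6 the 2 knockout effects differed by 0.20 ± 0.21 on the log2 scale, and for Pax1 by -4.07 ± 0.36. The Prdm16 knockout values of Pax1 chose the family, so nothing is read from the contrast of these differences.

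The Pax2, Pax5 and Pax8 subgroup was low throughout, too low to say whether its members moved together. Pax5 (ENSMUSG00000014030.15, chromosome 4, 44524757 to 44710487, minus strand), the B cell commitment and midbrain-hindbrain factor, had 4.96 and 0 normalised fragments in the Prdm16 knockout, against 28.6 and 18.8 in the Prdm16 control. That was 9.96% of control (2.61 to 27.2%), at a log2 fold change of -3.31 ± 0.72, which was -2.02 without Prdm16 knockout replicate 2 and -4.60 without replicate 1. Pax5 in the PR domain knockout had 2.69 and 2.48, against 1.01 and 1.03 in the PR domain control, from 6 and 2 fragments in all. The knockout libraries were the higher ones there, with a log2 fold change of 0.83 ± 0.72 that did not pass (limma adjusted p = 0.491).

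Pax2 (ENSMUSG00000004231.15, chromosome 19, 44756045 to 44837871, plus strand), an early regulator of the kidney and the optic stalk, had 14.9 and 6.60 normalised fragments in the Prdm16 knockout, against 7.42 and 10.3 in the Prdm16 control. These overlap, with 18 fragments on each side and a log2 fold change of 0.17 ± 0.73, so Pax2 was the one member whose Prdm16 knockout libraries were not both below the controls. The PR domain knockout had 0 and 0.827, and the PR domain control 0 in both libraries, too few for a comparison of levels (log2 fold change 0.43 ± 0.73, limma adjusted p = 0.757). Pax8 (ENSMUSG00000026976.15, chromosome 2, 24420560 to 24475599, minus strand), needed for thyroid follicular cells, had 1.24 and 1.10 in the Prdm16 knockout, against 2.12 and 2.82 in the Prdm16 control. It had 0.897 and 0.827 in the PR domain knockout, against 4.06 and 5.16 in the PR domain control, where 2 and 9 fragments gave 18.7% of control with a wide counting interval of 1.97 to 90.3%. Pax8 stayed below the filter on low values and was not tested.

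Pax3 and Pax7, the neural crest and muscle progenitor pair, were highest in the Prdm16 control. Pax3 (ENSMUSG00000004872.15, chromosome 1, 78101267 to 78197134, minus strand) had 2.48 and 2.20 normalised fragments in the Prdm16 knockout, against 11.7 and 14.1 in the Prdm16 control, which is 18.0% of control (4.57 to 51.9%) and a log2 fold change of -2.05 ± 0.72. The PR domain knockout had 1.79 and 3.31, against 4.06 and 0 in the PR domain control. Those libraries overlap, and the log2 fold change of 0.63 ± 0.72 did not pass (limma adjusted p = 0.622). Pax7 (ENSMUSG00000028736.13, chromosome 4, 139737062 to 139833528, minus strand) was at 0 in both Prdm16 knockout libraries, against 2.12 and 2.82 in the Prdm16 control, and at 0 in both PR domain groups. With the knockout group set to a floor of 3 fragments in all, Pax7 was 1.42-fold lower there than the 5 fragments of the Prdm16 control. The counting error of those 5 is left out, so 1.42 is not a lower bound.

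**Figure D3:**
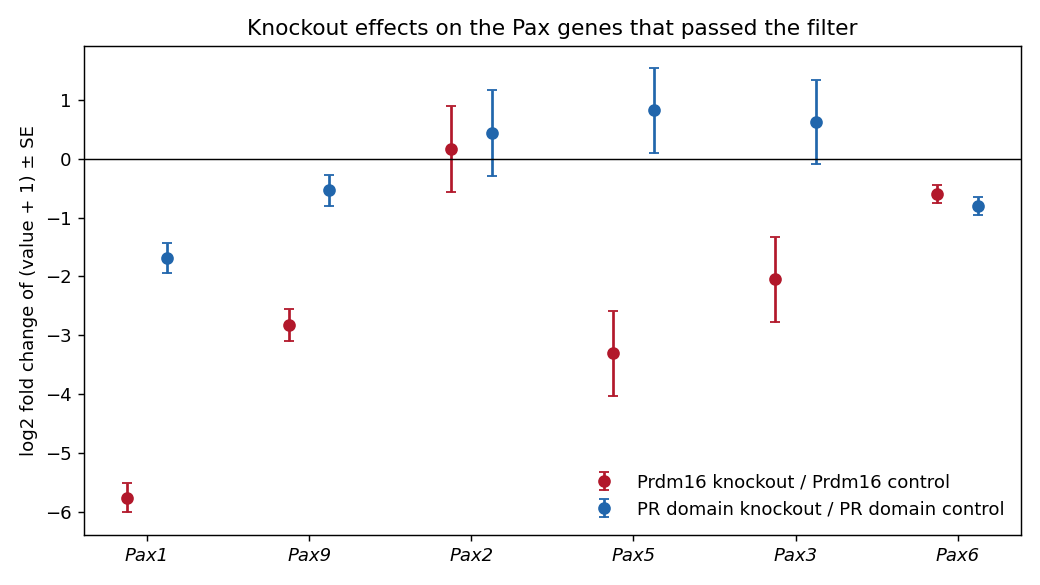
Log2 fold change of (normalised fragments + 1), with SE bars, for the 6 Pax genes that passed the filter, in the Prdm16 knockout against the Prdm16 control (red) and the PR domain knockout against the PR domain control (blue). Pax1, at -5.76 and -1.69, and Pax6, at -0.60 and -0.81, were lower in both comparisons. The SE bars of Pax5 do not overlap, but Pax5 passed the filter through the Prdm16 control alone. Its blue point rests on 6 and 2 fragments.

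Of the 8 members, 6 passed the filter of at least 10 normalised fragments in at least 2 libraries, and Pax7 and Pax8 did not. Pax3 and Pax5 passed through the Prdm16 control libraries alone, so their lower values in the Prdm16 knockout follow in part from how they entered. In the PR domain knockout 2 of the 6 tested members, Pax1 and Pax6, passed the adjusted p threshold of 0.05 as lower and none as higher, where 10.7% of all 16623 loci tested were called lower and 8.48% higher (19.2% in either direction). The median log2 fold change was -0.05 over the 6 and -0.03 over all loci. In the Prdm16 knockout 5 of the 6, all but Pax2, were past the threshold as lower, where 21.1% of all loci were (39.1% in either direction). The rule drew on that comparison, and nothing is read from the count. By library, 4 of the 8 members (Pax1, Pax9, Pax8 and Pax6) had both PR domain knockout libraries below both controls. Another, Pax5, had both above. Among the 6 tested members these counts were 3 below and 1 above, beside 31.9% and 24.7% of loci tested. In the Prdm16 knockout 7 of the 8 had both libraries below both controls, and none had both above. Among the 6 tested members these counts were 5 and 0, beside 36.5% and 31.3% of loci tested, and nothing is read from them. The difference of the 2 knockout effects was past the threshold as lower for 3 of the 6, Pax1, Pax9 and Pax5, and as higher for none. Of all loci, 16.4% were past it, 7.81% as lower and 8.6% as higher, and nothing is read from this count either.

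The 2 wild-type sets are set side by side here by their values, and each knockout was compared with its own set. Pax1, Pax9, Pax8 and Pax6 had both PR domain control libraries above both Prdm16 control libraries. Pax2, Pax5, Pax3 and Pax7 had both below. Among the 6 tested members these counts were 3 above and 3 below, beside 32.1% and 33.1% of loci tested. Of the 6 tested, Pax6 was past the threshold as higher (log2 difference 0.47 ± 0.15), and Pax2 (-3.29 ± 0.73), Pax5 (-3.58 ± 0.72) and Pax3 (-2.62 ± 0.72) as lower, in the PR domain control. Pax1 (0.58 ± 0.25) and Pax9 (0.48 ± 0.27) were not past it. Pax3 and Pax5 were tested through the Prdm16 control libraries alone, and Pax2 through libraries of the Prdm16 groups alone, so being lower in the PR domain control follows in part from how they entered. Several of these calls changed with the processing. Pax1 was past the threshold in 5 of 18 alternatives. Pax6 was not past it in 3 of 18, namely without Prdm16 control replicate 1 (0.33), without PR domain control replicate 2 (0.43) and on log2(FPKM + 1) (0.33). Pax3 was not past it in 3 of 18, without Prdm16 control replicate 2 (-2.49), without PR domain control replicate 2 (-1.45) and on log2(FPKM + 1) (-0.39). Pax2 (-0.38) and Pax5 (-0.78) were not past it on log2(FPKM + 1). These counts stand beside 33% of all loci past the threshold between the control sets, 16.3% higher and 16.7% lower in the PR domain control. The Prdm16 control had a part in choosing the family, so nothing is read from these calls. An effect on Pax2, Pax5, Pax3 or Pax7 in the PR domain knockout could not have been seen as a fall, since its control held 0 to 4 fragments of each.

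Per length, Pax1 was the most abundant member in the controls. Its FPKM, the depth-scaled fragments per kilobase of transcript, was 0.216 and 0.0959 in the Prdm16 knockout, against 7.94 and 7.75 in the Prdm16 control, and 3.0002 and 4.08 in the PR domain knockout, against 11.7 and 12.2 in the PR domain control. By the median FPKM over the 8 libraries the order of levels was Pax1 (5.91), Pax6 (1.83), Pax9 (1.56), Pax2 (0.153), Pax8 (0.132), Pax5 (0.115), Pax3 (0.108) and Pax7 (0). Pax6 and Pax9 in that order lie within each other's range of 1.18 to 5.64 and 0.193 to 2.62 FPKM, and Pax2, Pax8, Pax5 and Pax3 all overlap. The ratio of FPKM to normalised fragments of the same gene varied between libraries, 1.46-fold for Pax9, 2.06-fold for Pax1, 2.21-fold for Pax6 and 14.6-fold for Pax5, which limits the order of neighbours.

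Summed over the family, FPKM was 2.25 and 2.18 in the Prdm16 knockout, against 13.3 and 15.0 in the Prdm16 control. It was 6.38 and 8.25 in the PR domain knockout, against 16.8 and 20.8 in the PR domain control. Pax1 and Pax9 together made up 18.2 and 17.5% of the family's FPKM in the Prdm16 knockout, against 70.8 and 62.4% in the Prdm16 control. Their share was 67.7 and 69.5% in the PR domain knockout, against 82.0 and 71.2% in the PR domain control. Pax6 made up most of what remained in the Prdm16 knockout, at 52.5 and 64.4%, against 14.4 and 27.9% in the Prdm16 control. Pax fragments of all members came to 89 and 88 in the Prdm16 knockout libraries, against 357 and 434 in the Prdm16 control, so a single-gene value there rests on few reads.

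**Figure D4:**
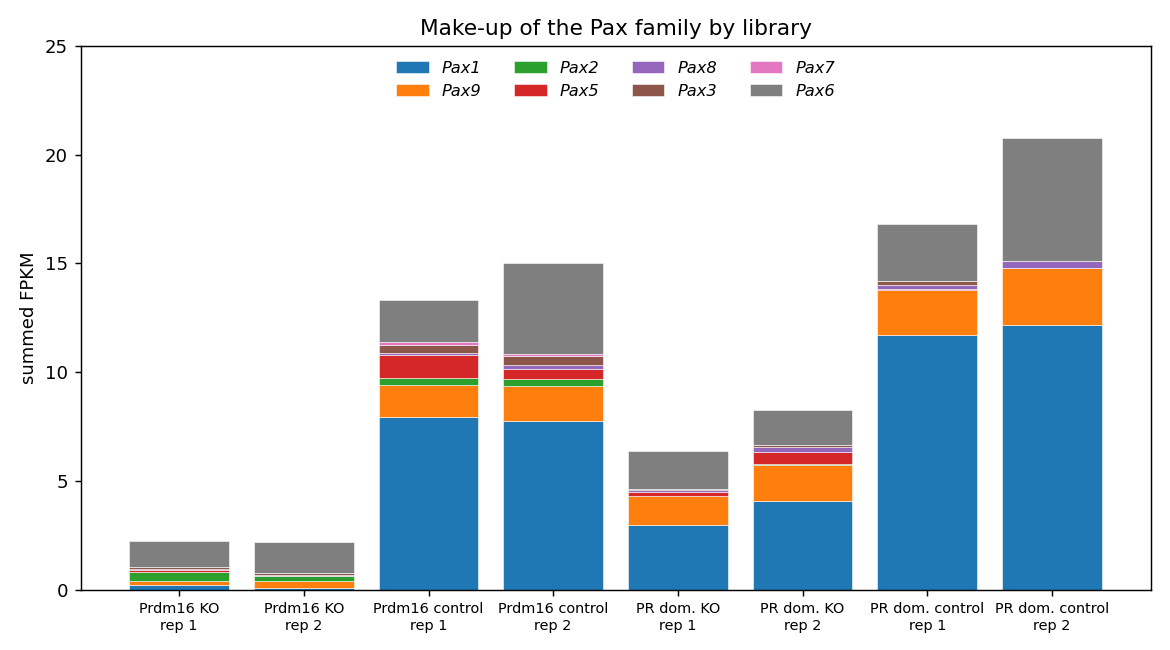
Summed FPKM of the 8 Pax genes (vertical axis) in each library (horizontal axis), stacked by gene. The Prdm16 knockout bars reach 2.25 and 2.18, with Pax6 as their largest piece, and Pax1 is the largest piece of the other 6 bars.

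Genes near the members on the chromosome were read for protein-coding loci within 500 kb. Of 4 such genes near Pax1, 2 were tested, Kiz and Xrn2, and 0 were past the threshold in either knockout; the homeobox gene Nkx2-2 stayed at or under 3.18 normalised fragments. Near Pax9, 2 of 4 neighbours were tested, Mbip and Slc25a21. Of these, Slc25a21 alone was past the threshold in the Prdm16 knockout, and neither was in the PR domain knockout. Slc25a21, a mitochondrial carrier gene on the opposite strand, shares 189 bases with the end of Pax9. Slc25a21 had 24.8 and 28.6 normalised fragments in the Prdm16 knockout, against 55.1 and 59.3 in the Prdm16 control, a log2 fold change of -1.07 ± 0.23. The PR domain knockout had 43.1 and 57.9, against 71.0 and 60.9 in the PR domain control (-0.39 ± 0.23, limma adjusted p = 0.257). Reads of the shared stretch cannot be assigned to either gene, as no strand setting is stated for the counting. On log2(FPKM + 1) the sign for Slc25a21 turned, to 0.03 and 0.12.

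Near Pax6, 5 of 6 neighbours were tested. In the Prdm16 knockout 2 of the 5, Wt1 and Rcn1, were past the threshold, beside 39.1% of all loci. In the PR domain knockout 1 was, beside 19.2% of all loci. Wt1, a regulator of kidney and mesothelium 495 kb from Pax6, rose in the PR domain knockout while Pax6 fell. It had 881 and 857 normalised fragments there, against 396 and 387 in the PR domain control (log2 fold change 1.15 ± 0.09, limma adjusted p = 9.88e-12). Wt1 in the Prdm16 knockout had 532 and 537, against 218 and 276 in the Prdm16 control (1.12 ± 0.09). The nearest neighbour, Elp4, 3.7 kb away, did not pass in the PR domain knockout (-0.23 ± 0.10, limma adjusted p = 0.118). Neither did Rcn1 (-0.01 ± 0.05), Immp1l (-0.03 ± 0.17) or Dnajc24 (-0.14 ± 0.14).

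Genes of the tissues in which Pax genes act were read from 12 lists, with the first 4 tested genes of 7 lists given by value. Of 12 lists, 76 genes were tested, and 7 of them reached the filter through the Prdm16 control libraries alone, so that low values elsewhere, the Prdm16 knockout included, follow in part from how they entered. Among sclerotome and early somite genes, 4 were at or near 0 in all groups and 6 were well detected. Nkx3-2, which Pax1 and Pax9 activate in the sclerotome, had 0.827 to 3.59 normalised fragments over the 8 libraries, Uncx of the posterior part of the somite 0 to 4.06, Meox2 0 to 4.13, and the early somite factor Tcf15 0 to 5.64. Over the same libraries Sox9, a cartilage and sclerotome factor, had 70.0 to 119, Twist1 116 to 293, Tbx18 70.0 to 167, Foxc1 17.6 to 156, Meox1 22.3 to 42.3 and the tendon factor Scx 13.8 to 47.1. These 6 are also used in other mesenchyme. Pax1 in the controls, at 167 to 259, stood beside low levels of the first 4 genes, and the name sclerotome is not carried over to the samples. Foxc1, a paraxial mesoderm factor, fell in the PR domain knockout, with 71.8 and 62.0 there, against 150.1 and 156 in the PR domain control (log2 fold change -1.18 ± 0.19, limma adjusted p = 2.41e-05). Foxc1 in the Prdm16 knockout had 23.6 and 17.6, against 90.1 and 106 in the Prdm16 control (-2.21 ± 0.19). Over the list, 6 of 11 genes were tested. None of these was called higher and 2 lower, Foxc1 and Twist1, in the PR domain knockout, and in the Prdm16 knockout 1 higher, Tbx18, and the same 2 lower. Of all loci tested, 8.48% were called higher and 10.7% lower in the PR domain knockout, and 18% and 21.1% in the Prdm16 knockout. Meox1 (-0.43 ± 0.26, limma adjusted p = 0.295) and Sox9 (-0.34 ± 0.17, adjusted p = 0.190) did not pass in the PR domain knockout.

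Notochord and Hedgehog genes, which lie upstream of Pax1 in the sclerotome, made up 1 list. In the Prdm16 knockout 6 of its 11 tested genes were past the threshold as lower, as were 21.1% of all loci. They were 5 of the Hedgehog pathway (Shh, Ptch1, Gli1, Gli3 and Smo) and the notochord gene T, which entered through the Prdm16 control alone. Shh, the ligand, had 16.1 and 18.7 normalised fragments there, against 66.8 and 56.4 in the Prdm16 control (log2 fold change -1.76 ± 0.23). The receptor Ptch1 (-0.46 ± 0.06) and the transcription factor Gli1 (-0.54 ± 0.13), both targets of the pathway, were lower by less, and Gli1 turned sign on log2(FPKM + 1). In the PR domain knockout 1 gene, Foxa2, was called higher and 1, the BMP antagonist Nog, lower, beside 8.48% and 10.7% of all loci. The Foxa2 call was lost without PR domain control replicate 2 (0.56) and on log2(FPKM + 1) (0.55). Shh had 68.2 and 56.2 there, against 50.7 and 49.5 in the PR domain control, and did not pass (0.30 ± 0.23, limma adjusted p = 0.425). Ptch1 (-0.09 ± 0.06, adjusted p = 0.317) and Gli1 (0.15 ± 0.13, adjusted p = 0.463) did not pass either. The difference of the knockout effects was past the threshold for Shh (-2.06 ± 0.33), Ptch1 (-0.37 ± 0.08) and Gli1 (-0.70 ± 0.18).

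Pharyngeal genes share the second domain of Pax1 and Pax9. Tbx1, a factor of the pharyngeal arches and pouches, fell in the PR domain knockout, with 15.3 and 21.5 normalised fragments there, against 62.9 and 56.8 in the PR domain control (log2 fold change -1.67 ± 0.32, limma adjusted p = 0.000229). Tbx1 in the Prdm16 knockout had 3.72 and 5.50, against 37.1 and 43.3 in the Prdm16 control (-2.89 ± 0.32). Foxe1, a thyroid and pharyngeal endoderm factor, had 29.6 and 26.5 in the PR domain knockout, against 46.7 and 50.6 in the PR domain control, and did not pass (-0.77 ± 0.31, adjusted p = 0.0868). Foxe1 in the Prdm16 knockout had 2.48 and 4.40, against 45.6 and 49.8 in the Prdm16 control (-3.49 ± 0.31). Thyroglobulin, Tg, did not pass in the PR domain knockout (0.04 ± 0.40, adjusted p = 0.961), and the Hoxa3 value belongs to a locus shared with Hoxa2. Of 5 tested genes of this list, 0 were called higher and 1 lower in the PR domain knockout, and 0 higher and 3 lower in the Prdm16 knockout. Among all loci, 8.48% were higher and 10.7% lower in the PR domain knockout, and 18% and 21.1% in the Prdm16 knockout. Foxn1 of the thymus was at 0 in every library.

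Muscle progenitor genes that work beside Pax3 and Pax7 were read next. Six4, a homeobox factor of muscle progenitors, had 52.9 and 68.7 normalised fragments in the PR domain knockout, against 135 and 127 in the PR domain control, and fell (log2 fold change -1.11 ± 0.17, limma adjusted p = 1.34e-05). Six4 in the Prdm16 knockout had 44.7 and 53.9, against 128 and 137 in the Prdm16 control (-1.42 ± 0.17). Of 7 tested genes, 2 were called higher (Met and Fgfr4) and 4 lower (Six4, Eya1 and Eya2 among them) in the PR domain knockout, and 0 higher and 6 lower in the Prdm16 knockout. The shares of all loci were 8.48% higher and 10.7% lower in the PR domain knockout, and 18% and 21.1% in the Prdm16 knockout. Six4 and the Eya cofactors also act in pharyngeal and sensory tissue. The defining muscle gene Myf5 was at 0 in every library and Myod1 at or under 2.06. Met, a receptor that Pax3 activates in limb muscle progenitors, rose in the PR domain knockout (0.77 ± 0.14, adjusted p = 0.000134) and was lower in the Prdm16 knockout (-0.50 ± 0.14). Its rise did not pass on log2(FPKM + 1) (0.41).

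Midbrain-hindbrain genes, partners of Pax2, Pax5 and Pax8, were lower in the Prdm16 knockout for all 4 tested genes, Fgf8, Wnt1, Otx2 and Lmx1b, at a median log2 fold change of -2.52. Wnt1 and Lmx1b, however, had reached the filter through the Prdm16 control libraries alone. Among all loci, 10.7% were called lower in the PR domain knockout and 21.1% in the Prdm16 knockout. Lmx1b had 0 and 3.30 normalised fragments there, against 28.6 and 25.4 in the Prdm16 control, the same control in which Pax5 stood at 28.6 and 18.8. Of these, in the PR domain knockout, Fgf8 (-0.85 ± 0.30, limma adjusted p = 0.0460) and Otx2 (-1.74 ± 0.19, adjusted p = 2.83e-08) fell, while Wnt1 (-0.03 ± 0.56, adjusted p = 0.979) and Lmx1b (-1.09 ± 0.61, adjusted p = 0.241) did not pass. The Fgf8 call was lost in 14 of 18 alternatives, a replicate block among them. The Otx2 locus carries a second gene name, so its value belongs to no single gene.

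Kidney genes, where Pax2 and Pax8 act, split in direction. Of 13 tested, 3 were called higher and 5 lower in the PR domain knockout, and 2 higher and 7 lower in the Prdm16 knockout. The shares of all loci were 8.48% higher and 10.7% lower in the PR domain knockout, and 18% and 21.1% in the Prdm16 knockout. Lhx1, an intermediate mesoderm factor, had 3.59 and 0.827 normalised fragments in the PR domain knockout, against 13.2 and 24.8 in the PR domain control, and fell (log2 fold change -2.72 ± 0.38, limma adjusted p = 2.38e-06). Emx2, among the 7, had entered through the Prdm16 control alone. Osr1, another intermediate mesoderm factor, had 1.24 and 3.30 in the Prdm16 knockout, against 23.3 and 18.8 in the Prdm16 control (-2.82 ± 0.40), and did not pass in the PR domain knockout (0.48 ± 0.40, adjusted p = 0.469). Gata3, whose locus carries more than 1 name, fell in the PR domain knockout (-0.98 ± 0.22, adjusted p = 0.00135). The calls of Lhx1 (-1.21) and Gata3 (-1.63) in the PR domain knockout were lost on log2(FPKM + 1).

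Among eye and forebrain genes, where Pax6 acts, 0 of 5 tested were called higher and 3 lower in the PR domain knockout (Six3, Eomes and Sox2), and 1 higher and 3 lower in the Prdm16 knockout. Beside these stand 8.48% higher and 10.7% lower of all loci in the PR domain knockout, and 18% and 21.1% in the Prdm16 knockout. Six3, a forebrain and eye factor whose locus carries more than 1 name, was at 0 in both PR domain knockout libraries, against 3.04 and 6.19 normalised fragments in the PR domain control. Eomes, a factor of cortical progenitors and of the primitive streak, had 3.59 and 0.827 there, against 8.11 and 7.22 in the PR domain control (-1.58 ± 0.37, limma adjusted p = 0.00191). Both rest on few fragments. The call of Six3 was lost without PR domain control replicate 2 (-2.02), at a pseudocount of 5 (-0.92) and on log2(FPKM + 1) (-0.22). That of Eomes was lost without PR domain knockout replicate 2 (-0.92), with edgeR (-1.75), in a fit of the compared groups alone (-1.58) and on log2(FPKM + 1) (-0.20). Lhx2 (-0.09 ± 0.12, limma adjusted p = 0.670) did not pass. The retinal gene Rax reached at most 5.64 normalised fragments, and the islet gene Gcg, a Pax6 target, was at 0 in every library.

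The remaining lists were read by count. Of 6 tested cartilage genes, 1 was called higher and 3 lower (Col2a1, Col9a1 and Hapln1) in the PR domain knockout, and 1 higher and the same 3 lower in the Prdm16 knockout. Of 6 tested neural tube genes, 0 were higher and 1 lower in the PR domain knockout and 0 higher and 4 lower in the Prdm16 knockout, where 2 of the 4, Nkx6-1 and Zic1, had entered through the Prdm16 control alone. Neural crest genes had 0 higher and 2 lower of 6 in the PR domain knockout and 1 higher and 1 lower in the Prdm16 knockout. B cell genes had 2 higher and 1 lower of 5 in the PR domain knockout and 2 and 2 in the Prdm16 knockout. Of 2 tested islet genes, 0 were higher and 1 lower in the PR domain knockout, and 1 was higher and 1 lower in the Prdm16 knockout. All these counts stand beside the shares of all loci called given above, 8.48% higher and 10.7% lower in the PR domain knockout and 18% higher and 21.1% lower in the Prdm16 knockout.

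**Figure D5:**
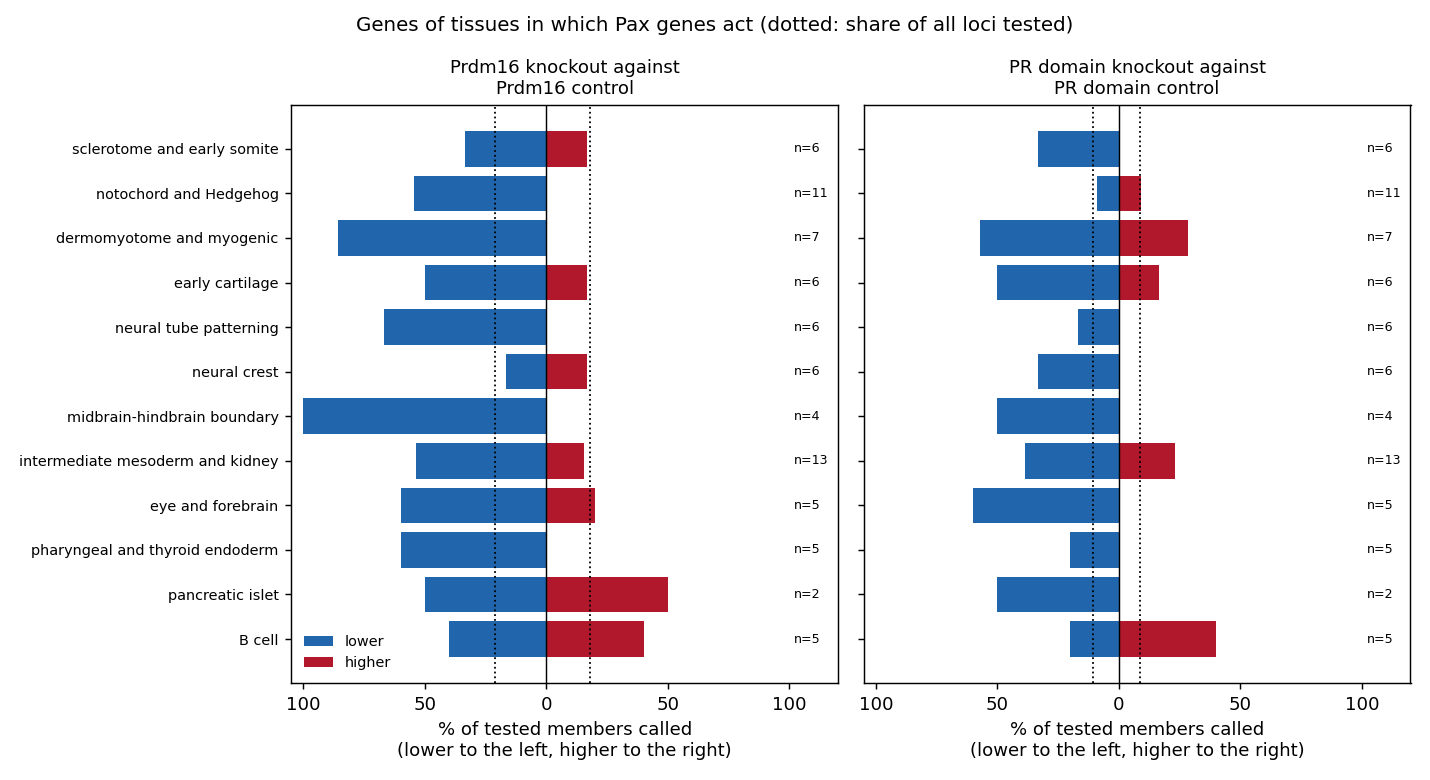
Share of the tested genes of each of 12 tissue lists called lower (bars to the left) or higher (to the right), in percent, in the Prdm16 knockout against its control (left panel) and the PR domain knockout against its control (right panel), with n tested genes beside each bar and dotted lines at the share of all loci tested. All 4 midbrain-hindbrain genes were lower in the Prdm16 knockout, of which 2 entered through the Prdm16 control alone, and notochord and Hedgehog genes had 6 of 11 lower there, 1 of them entered so, and 1 of 11 in the PR domain knockout.

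Markers of other cell types moved in the same comparisons. Visceral endoderm genes summed to 77693 to 78346 normalised fragments in the Prdm16 knockout, against 36726 to 38407 in the Prdm16 control, with 7 of 9 called higher and 0 lower. Their sum in the PR domain knockout was 9900 to 10000.1, against 5425 to 5717 in the PR domain control, with 8 of 9 called higher and 1, Sox17, lower. Cardiomyocyte genes summed to 6582 to 6632 in the PR domain knockout, against 14863 to 14988 in the PR domain control, with 7 of 8 lower and 1 higher. Their sum in the Prdm16 knockout was 4808 to 4814, against 6539 to 6835 in the Prdm16 control, with 6 of 8 lower. Macrophage genes were higher for 8 of 8 in the PR domain knockout (8222 to 8237, against 4198 to 4343 in the PR domain control) and 7 of 8 in the Prdm16 knockout (3181 to 3270, against 1473 to 1559 in the Prdm16 control). Endothelial genes summed to 4720 to 4824 in the PR domain knockout, against 6643 to 6832 in its control, with 7 of 7 lower, and to 4362 to 4476 in the Prdm16 knockout, against 4831 to 4883 in its control, with 2 of 7 higher and 5 lower. None of the defining markers of these 4 types was at 0 throughout. Of all loci tested, 18% were called higher and 21.1% lower in the Prdm16 knockout, and 8.48% higher and 10.7% lower in the PR domain knockout. The part of these marker shifts in the Pax values was not tested.

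The other marker lists moved less evenly. Fibroblast genes summed to 142579 to 143278 in the PR domain knockout, against 107512 to 108612 in its control, with 7 of 8 higher, and to 107585 to 109930 in the Prdm16 knockout, against 78081 to 78161 in its control, with 5 of 8 higher. Prrx1, a limb and head mesenchyme factor, was lower in both. Erythroid genes were higher for 5 of 7 in the PR domain knockout and 4 of 7 in the Prdm16 knockout, where 1, Hbb-y, was lower. Neuron genes were lower for 1 of 5 in the PR domain knockout and 4 of 5 in the Prdm16 knockout. Of 3 tested stem cell genes, 1 was higher and 1 lower in the PR domain knockout, and 2 were lower in the Prdm16 knockout. The shares of all loci called are those given for the markers above.

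The loci whose profile was most like that of each member, by Pearson correlation of log2(value + 1) over the 8 libraries, were taken as a description. The libraries share groups and depth, so these values carry no test. For Pax1 they were Itga6 (r = 0.996), Ttll1, Dpysl3, Simc1 and Limch1 (0.989). Dpysl3, the widest-ranging of these, had 259 and 228 normalised fragments in the Prdm16 knockout, against 708 and 787 in the Prdm16 control. It had 643 and 616 in the PR domain knockout, against 991 and 919 in the PR domain control. A correlation leaves out the size of a change. Itga6 had 934 and 885 in the Prdm16 knockout, against 1214 and 1208 in the Prdm16 control, so the near absence of Pax1 was not shared. For Pax9 they included Macc1 (0.992), Arhgef12, Sema3d and Mpdz (0.987). Macc1 had 1.24 and 5.50 in the Prdm16 knockout, against 77.4 and 79.0 in the Prdm16 control, and 78.0 and 59.6 in the PR domain knockout, against 146 and 120 in the PR domain control.

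For Pax6 the most similar loci were Gimap6 (0.993), Tubgcp3, Sin3b, Gm5422 and Cdc123 (0.987). Gimap6 had 111.7 and 100.1 normalised fragments in the Prdm16 knockout, against 149 and 184 in the Prdm16 control, and 127 and 149 in the PR domain knockout, against 235 and 259 in the PR domain control. The low members gave Fam131b (0.979), Chac1, Gsk3a, Gm44986 and the locus of Gm13717 and Smo (0.954) for Pax5, and Slc5a5 (0.992), Gm26668, Ybx2, Gm38058 and G530011O06Rik (0.950) for Pax3. For Pax2 they were the locus of Baiap3 and Gnptg (0.990), Gm47513, Gm7901, Pfkl and the locus of Dvl2 and Mir324 (0.985). No locus was among the 5 most similar of more than 1 member.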

How the data were processed

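RNA-seq was measured in 8 libraries of day 9 mouse embryoid bodies, with RNA extracted by Trizol and RNeasy and TruSeq libraries, per the labels' protocols. Named in the submitters' processing notes, with no role or order, are mm10, deepTools, Cufflinks 2.2.1, SAMtools 1.5 and TopHat2 2.1.1. Neither the annotation release nor the strand setting was given in the sources used here. The authors deposited a signal table of fragments per locus divided by 1 size factor per library, judged per the file headers and the values. Within each library 99.99 to 100.0% of values were whole multiples of 1 step (0.827 to 1.24) within a tolerance of 0.1. The authors also deposited FPKM values, used to compare levels between genes and in 1 alternative. Of 55020 lines, 53068 loci were distinct. The 787 without a name, with 1.88 to 2.53% of fragments, were left out. A further 1390 loci carried 2 or more names.

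Groups and replicate numbers came from the sample titles. The test was limma-trend (limma 3.58.1, R 4.3.3) on log2(value + 1) with the authors' scaling, for loci at 10 or more in at least 2 libraries (16623). It fitted 4 group means to all 8 libraries (4 residual and 25.4 prior degrees of freedom), and a Benjamini-Hochberg adjusted p below 0.05 was a call. The + 1 makes fold changes of low genes too small. Unadjusted 95% intervals of fold changes come from the same fit. Ratios of fragments have exact 95% intervals. Intervals cover counting error only, and the floor (3 fragments over the group) leaves out the counting error of the other group. Without molecular identifiers, fragments need not be separate molecules. Chi-square per degree of freedom between replicates was 1.40 to 2.23, so they differed beyond sampling noise. The scripts were tested on simulated data.

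The members and lists were chosen with earlier results of these data known. Named genes were the Pax genes, Prdm16, the first 4 tested genes of a list in an order set by role, and the 5 loci most correlated with each tested member. Genes are given by value for 7 of the 12 lists. Those 7 lists, and the other genes named for a level, an overlap or a neighbouring position, were chosen after their values were seen. Coordinates and gene types are from GENCODE M21 (GRCm38). Foxc2 and Tubb3 were not analysed here, and some genes that meet the naming rule are not reported here. Alternatives were other scalings, among them size factors from edgeR 4.0.16 (TMM) and DESeq2 1.42.0 (median ratio), edgeR's quasi-likelihood test on the recovered fragments, a fit of the compared groups alone, no filter, other pseudocounts, FPKM, a replicate block and leaving out each library.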

Additional observations from a re-analysis of the deposited data

Results flagged for a closer look

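The Prdm16 knockout and the PR domain knockout were compared by the difference of their log2 fold changes, each against its own control, in the fit over all loci. The results here are those named whose difference passed the threshold, as it did for 16.4% of all loci tested. No group held enough libraries for a check of single libraries that stand apart. Among the Pax genes 3 of the 6 tested passed, and since the Prdm16 knockout chose the family no p is given for them. The difference, Prdm16 knockout minus PR domain knockout, was -4.07 for Pax1, -2.29 for Pax9 and -4.14 for Pax5. Pax1 was lower in both knockouts. Pax5 was lower in the Prdm16 knockout. Its PR domain knockout libraries, at 2.69 and 2.48 normalised fragments, lay above a control at 1.01 and 1.03. Those PR domain values rest on 6 and 2 fragments, and the log2 fold change there did not pass. Pax5 had reached the filter on low values through the Prdm16 control libraries alone, so its difference follows in part from how it entered. For Pax9 and Pax5 the difference was not past the threshold on log2(FPKM + 1), where it was -0.62 and -1.14, and for Pax1 it was -1.42.

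The Hedgehog genes Shh (-2.06), Ptch1 (-0.37) and Gli1 (-0.70) and the midbrain-hindbrain genes Fgf8 (-1.22), Wnt1 (-2.43), Lmx1b (-2.66) and Otx2 (-0.82) had more negative log2 fold changes in the Prdm16 knockout than in the PR domain knockout, as had Foxc1 (-1.02), Foxe1 (-2.71) and Osr1 (-3.30). Of these, Shh, Gli1 and Osr1 had positive log2 fold changes in the PR domain knockout that did not pass (0.30, 0.15 and 0.48), and Wnt1 had -0.03. Wnt1 and Lmx1b had reached the filter on low values through the Prdm16 control libraries alone. Met had a difference of -1.27 and moved in opposite directions in the knockouts. Lhx2 was the exception to the direction, with a difference of 0.79 and 313 and 298 normalised fragments in the Prdm16 knockout, against 170 and 209 in the Prdm16 control.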

How the results depend on the processing

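In the PR domain knockout the fall of Pax1 stayed past the threshold under every alternative tried, at log2 fold changes of -1.83 to -1.54 with 1 library left out (limma adjusted p up to 0.00138) and of -1.70 to -1.52 otherwise (adjusted p up to 0.00833). Pax6 stayed past it with any library left out (-0.88 to -0.73) and was lost on log2(FPKM + 1). Pax9 did not pass under any (adjusted p 0.0566 to 0.446). In the Prdm16 knockout, Pax6 was not past the threshold without Prdm16 control replicate 2 (-0.46) or on FPKM (-0.77), Pax5 not on FPKM (-0.75), and Pax3 not on FPKM (-0.37), without the filter, or without any 1 library of its groups. On log2(FPKM + 1) the loci called numbered 2244 in the Prdm16 knockout, 582 in the PR domain knockout, 199 for the difference of the effects and 1717 between the controls. The main counts were 6502, 3190, 2728 and 5481. Without the filter the difference gave 1642. The cause was not tested. Called loci were higher for 45.9% in the Prdm16 knockout, against 55.0% under TMM scaling and 39.3% under total-fragment scaling, and for 44.2% in the PR domain knockout, against 54.4% under median-ratio scaling.

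Signs turned for low or unchanged genes. With 1 library left out, Pax2 ranged from -0.36 to 0.70 in the Prdm16 knockout, from 0.00 to 0.87 in the PR domain knockout and from -0.80 to 0.27 for the difference, which was 0.0273 at a pseudocount of 5. In the PR domain knockout the ranges were -0.54 to 1.79 for Pax3, -0.91 to 0.28 for Dmrt2, -0.19 to 0.12 for Wnt1, -0.19 to 0.0071 for Lhx2, -0.57 to 0.26 for Hoxa3 and -0.58 to 0.66 for Tg. On log2(FPKM + 1), Gli1 had 0.0723 in the Prdm16 knockout, against -0.0586 in the PR domain knockout, Lhx2 had 0.065 in the PR domain knockout, and Slc25a21 had 0.0342 and 0.12. Same-numbered replicates did not deviate together over all loci tested (correlations of -0.04 to 0.03). Counting noise of low loci enters these correlations, so they do not settle whether the numbers pair samples. With a replicate block 6438, 3149, 2686 and 5442 loci were called, and of 84 gene values 3 changed side: Sox9 and Tbx18 gained a call and Fgf8 lost one. Few fragments limit Pax2, Pax3, Pax5, Pax7 and Pax8.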
